A study of Mus musculus with 8 samples.

Results

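The effect of the MLIF peptide was followed in mice that had received adjuvant but no collagen. The comparison rests on 4 of the 8 arrays of the study, the 2 arrays of adjuvant mice given MLIF against the 2 arrays of adjuvant mice without it, chosen by their titles and described over 28944 probe sets that name 19938 genes. The animals were male DBA/1J mice aged 8 to 10 weeks, in groups of 8, and the tissue was articular tissue of the paw, taken 4 weeks after the booster by the sample labels, while the text on the series places it before the booster. Adjuvant mice were injected into the skin at the tail base with complete Freund adjuvant, killed mycobacteria in oil, and boosted at week 3 with incomplete adjuvant, the oil alone. The adjuvant+MLIF mice had the same injections and in addition MLIF in the nose once a week during 9 weeks. The other 4 arrays came from mice with collagen-induced arthritis (CIA), immunised with chicken type II collagen (150 µg) emulsified in the complete adjuvant and boosted in the incomplete one, and from CIA mice given MLIF (CIA+MLIF). All 4 groups therefore carried adjuvant, and no array came from an untouched mouse. Both arrays of each group are labelled biological replicates. Whether 1 mouse or several gave the RNA of an array is not said, so every p-value reflects array-to-array spread, which may be partly technical.

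MLIF (monocyte locomotion inhibitory factor), a pentapeptide, is released by the amoeba Entamoeba histolytica and is known for slowing the movement of monocytes. Immediate-early genes such as Fos are transcribed within minutes of a stimulus, from promoters that are bound in advance by factors answering to cyclic AMP, calcium or growth factor signals, and their messages are short-lived. Neutrophils, the phagocytes that enter inflamed joints, make their granule proteins while they mature in the bone marrow. In bulk tissue, fewer cells of a type and less RNA per cell cannot be told apart.

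Signals are log2 values per probe set, with each array centred on its median over the 28944 probe sets, so a difference of 1 is a doubling. Changes are adjuvant+MLIF minus adjuvant, with the standard error (SE) and the p of limma, a linear model fitted to all 8 arrays that shares 1 spread per probe set among the groups. An adjusted p (Benjamini and Hochberg, over all 28944 probe sets) under 0.05 counted as passing. The median SE was 0.13 and the median 95% interval, which is unadjusted, reached 0.3 to either side. Passing took a larger change: by limma Btg2 at -0.61 (adjusted p 0.0534) and Fasn at -0.55 (0.0625) did not pass. With 2 arrays a group, a gene that did not pass cannot be called unchanged. An exact two-sided permutation test of 2 against 2 arrays cannot go below p = 0.333 and was not used. The 2 adjuvant+MLIF arrays were much closer to each other (SD of their difference 0.094) than the 2 adjuvant arrays (0.207), the 2 CIA arrays (0.324) or the 2 CIA+MLIF arrays (0.263), and array CIA 1 had a deposited median of 6.66 against 7.07 to 7.10 on the other 7. Markers of joint and muscle were high in all 4 arrays: Prg4, the lubricin of joint surfaces, read 12.89 and 12.94 without and 12.92 and 12.90 with MLIF, and the muscle actin gene Acta1 read 13.77 to 13.80. The keratin genes Krt1, Krt5 and Krt14 of the epidermis read 5.51 to 6.72 in these 4 arrays, around the median of the entries without annotation (6.29 without and 6.25 with MLIF), but 11.09 to 13.20 in CIA and 9.93 to 12.86 in CIA+MLIF.

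In these joints few genes passed. Among them, immediate-early genes such as Fos, Fosb and Egr1 were lower with MLIF. Neutrophil genes such as Ltf, S100a8 and Mpo, the eosinophil gene Prg2 and the chemokine genes Ppbp and Cxcl9 were higher. The change spanned 3.05-fold lower for Fos to 2.67-fold higher for Prg2. Of 28944 probe sets 275 passed (0.950%), 19 of them higher (0.0656%) and 256 lower (0.884%). Most of the lower ones had no single gene name: 98 carried several symbols and 141 none, and the 275 held only 172 distinct sets of values. With 1 probe set a gene, 17 of 19938 genes passed higher (0.0853%) and 10 lower (0.0502%). Of the 35 passing probe sets with 1 symbol, 15 (6 higher and 9 lower) lay outside the rule for named genes and are given further on.

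The calls depended on the arrays and the scaling. Without either adjuvant array, or without either adjuvant+MLIF array, no probe set passed by limma (1078 to 2704 at an unadjusted p under 0.05). None passed with the adjuvant+MLIF pair entered as 1 array (1002 unadjusted) or with the deposited values uncentred (1107 unadjusted), where the changes were nearly as before (Fos -1.61, Prg2 1.41). Uncentred values without both CIA arrays, an alternative chosen after seeing the data, gave 529. Without CIA+MLIF 1 or CIA+MLIF 2, 41 passed, without CIA 1 or CIA 2 529, in a fit of only the 4 adjuvant arrays 674, and after averaging all probe sets of a gene 3. The share of probe sets that changed by over 0.5 was 3.18%, against 2.52% that differed by as much between the 2 adjuvant arrays and 0.117% between the 2 adjuvant+MLIF arrays. The first share compares means of 2 arrays and the others single arrays, which spread more, so the shares are not on the same scale.

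**Figure D1:**
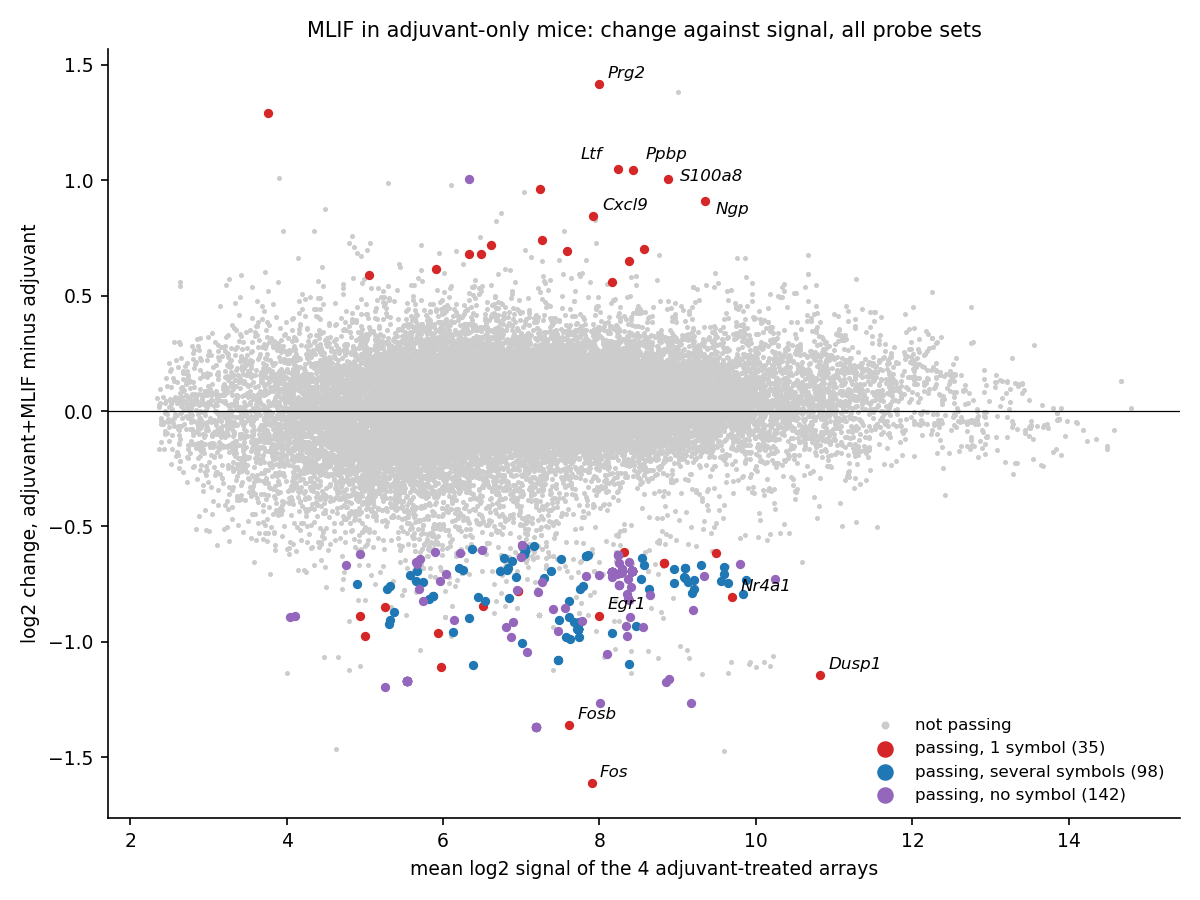
Log2 change with MLIF in adjuvant-only mice (vertical, adjuvant+MLIF minus adjuvant) against the mean log2 signal of the 4 arrays (horizontal), 1 point a probe set, coloured where the adjusted p (limma) is under 0.05. Of the 275 passing probe sets 35 carry 1 symbol, 98 several and 142 none, and Prg2 lies highest and Fos lowest among those with 1 symbol.

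The promoters of 4 of the lower signal-response genes are shown here because they hold the letters TGACG, the core of the cyclic AMP response element, and those of Ngp and Ltf because they hold TTGCNNAA, the letters bound by C/EBP factors of granulocyte maturation. Each runs 5′ to 3′ along the gene, from 250 bases before its start to 50 after it, from RefSeq (GRCm38.p6), with matches on either strand in capitals (TGACG reads CGTCA on the other strand).
Fos (chr12:85473640-85473939, plus strand): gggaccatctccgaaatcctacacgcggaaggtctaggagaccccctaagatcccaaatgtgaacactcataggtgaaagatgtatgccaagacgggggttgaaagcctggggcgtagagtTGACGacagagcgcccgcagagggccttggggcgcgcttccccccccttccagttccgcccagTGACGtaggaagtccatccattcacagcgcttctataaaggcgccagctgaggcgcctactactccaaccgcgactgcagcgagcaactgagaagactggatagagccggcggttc
Fosb (chr7:19309996-19310295, minus strand): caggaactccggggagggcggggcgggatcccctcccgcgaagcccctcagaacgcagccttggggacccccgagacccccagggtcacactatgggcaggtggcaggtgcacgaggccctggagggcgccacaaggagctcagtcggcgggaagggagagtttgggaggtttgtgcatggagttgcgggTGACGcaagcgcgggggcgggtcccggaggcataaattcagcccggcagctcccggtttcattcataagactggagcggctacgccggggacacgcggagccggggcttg
Dusp1 (chr17:26508423-26508722, minus strand): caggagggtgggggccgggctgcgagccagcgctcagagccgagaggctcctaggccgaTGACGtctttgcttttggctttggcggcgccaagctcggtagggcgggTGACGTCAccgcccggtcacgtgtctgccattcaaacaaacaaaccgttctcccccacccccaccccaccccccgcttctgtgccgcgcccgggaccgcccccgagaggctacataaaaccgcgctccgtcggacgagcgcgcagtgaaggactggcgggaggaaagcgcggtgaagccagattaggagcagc
Nr4a1 (chr15:101266596-101266895, plus strand): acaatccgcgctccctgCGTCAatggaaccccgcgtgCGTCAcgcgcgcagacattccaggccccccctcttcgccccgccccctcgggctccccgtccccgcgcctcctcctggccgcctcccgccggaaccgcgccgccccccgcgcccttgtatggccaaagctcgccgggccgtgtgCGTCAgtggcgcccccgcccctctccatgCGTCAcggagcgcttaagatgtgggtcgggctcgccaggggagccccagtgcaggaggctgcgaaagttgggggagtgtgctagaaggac
Ngp (chr9:110419558-110419857, plus strand): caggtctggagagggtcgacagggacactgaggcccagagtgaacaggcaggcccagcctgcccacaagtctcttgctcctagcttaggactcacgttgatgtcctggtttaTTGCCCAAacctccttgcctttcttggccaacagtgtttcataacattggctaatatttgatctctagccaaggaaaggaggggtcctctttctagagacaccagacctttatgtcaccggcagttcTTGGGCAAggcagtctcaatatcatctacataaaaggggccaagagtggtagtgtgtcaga
Ltf (chr9:111019042-111019341, plus strand): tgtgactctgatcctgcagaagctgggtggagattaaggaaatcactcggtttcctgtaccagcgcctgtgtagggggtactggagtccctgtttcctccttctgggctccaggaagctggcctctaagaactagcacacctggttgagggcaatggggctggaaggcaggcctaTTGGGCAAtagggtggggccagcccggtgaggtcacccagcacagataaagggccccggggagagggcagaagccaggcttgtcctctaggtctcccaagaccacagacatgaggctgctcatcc

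TGACG was found 2 times in the window of Fos, 66 and 129 bases before the start, 1 time in that of Fosb, 60 bases before it, 3 times in that of Dusp1 and 4 times in that of Nr4a1. In Dusp1 matches on both strands overlap in the palindrome TGACGTCA, which 1.79% of all 32851 windows hold. TGACG was in 20.8% of all windows and was not found in that of Zfp36, which also passed. The window of Egr1 was not searched. TTGCNNAA was found 2 times in the window of Ngp and 1 time in that of Ltf, and was in 10.8% of all windows. No match was found for it in the windows of Camp, Mpo and S100a8, which also passed. A match is a description of these letters, and the arrays measured no binding.

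Of 24 immediate-early genes measured, 5 passed lower and 0 higher, where 0.0502% of all genes passed lower. Their median change was -0.21 against 0.04 over all genes, and 19 of 24 were negative against 7565 of 19938. In 18 of 24 both MLIF arrays lay below both adjuvant arrays, which held for 18.3% of all genes. The 5 that passed encode transcription factors (Fos, Fosb, Egr1, Nr4a1) and a protein that destabilises messages (Zfp36).

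Fos, which encodes a subunit of the AP-1 transcription factor (probe set 10397346), read 8.68 and 8.73 without and 7.12 and 7.06 with MLIF. The gap was far wider than the spread within either group. Fos fell by 1.61 (SE 0.10, adjusted p 0.00242), or 3.05-fold. Fosb, its close relative in AP-1 (10560481), read 8.35 and 8.22 without and 6.90 and 6.95 with MLIF. It fell by 1.36 (SE 0.11, adjusted p 0.00655). Egr1, a zinc finger transcription factor induced by growth factors (10454782), read 8.51 and 8.37 against 7.54 and 7.57, and fell by 0.89 (SE 0.11, adjusted p 0.0204). In all 3 genes the MLIF arrays lay within 0.1 of each other, as they did for 79.9% of all probe sets. That they lay below both adjuvant arrays was a condition for naming these genes.

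Nr4a1, an orphan nuclear receptor (10427035), was among the stronger signals and read 10.19 and 10.02 without and 9.31 and 9.28 with MLIF. It fell by 0.81 (SE 0.13, adjusted p 0.0378). Zfp36, or tristetraprolin, which binds AU-rich messages such as that of TNF and speeds their decay (10561453), read 8.66 and 8.57 against 8.03 and 7.98. It fell by 0.61 (SE 0.10, adjusted p 0.0378). Btg2, an antiproliferative gene with 8.11 and 8.32 against 7.60 and 7.60, had the same change (-0.61) but did not pass (adjusted p 0.0534). The other lower members lay between Junb, an AP-1 subunit (-0.50, adjusted p 0.284), and Klf4 (-0.06), with Atf3 at -0.41, Klf2 at -0.36, Jun at -0.34 and Ccn1 at -0.28. Within families the change was uneven: Fosl2 was at -0.22 and Fosl1 at 0.27, Egr2 at -0.18 and Egr3 at 0.05, and Nr4a2 and Nr4a3 both at -0.21. Myc and Ier3 were both at 0.09, and none of these passed.

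Dusp1, the phosphatase that switches off p38 and JNK kinases (10449284), is also induced by stimuli and by glucocorticoids. Its signal was 11.41 and 11.39 without and 10.23 and 10.27 with MLIF. The arrays of each group were nearly equal. Dusp1 fell by 1.15 (SE 0.18, adjusted p 0.0378), or 2.21-fold. Among 21 anti-inflammatory mediators Dusp1 and Zfp36 were the 2 that passed lower, where 0.0502% of all genes did. None passed higher (1 at an unadjusted p under 0.05 by limma, against 3.50% of all genes), and the median was 0.09. Next by p in that list, the interleukin receptor genes Il4ra (0.33, adjusted p 0.44) and Il1r2, a decoy (0.38, adjusted p 0.609), were on the positive side. Of 18 glucocorticoid-responsive genes and metallothioneins, Dusp1 alone passed, against the same share of all genes. In that list 9 were positive and 9 negative, and the median was 0.02. Errfi1, a feedback inhibitor of the EGF receptor, was at -0.53 (adjusted p 0.206) and the clock gene Per1 at -0.44 (adjusted p 0.287).

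Of 18 neutrophil genes measured, 5 passed higher and 0 lower, where 0.0853% of all genes passed higher. Their median change was 0.62, the farthest from that of all genes among 43 gene lists, and 17 of 18 were positive, against 12373 of 19938. The lists were chosen with earlier results of these data known, so that rank is no independent support. In 16 of 18 both MLIF arrays lay above both adjuvant arrays, which held for 36.0% of all genes. The mean signal over the 18 genes was 7.12 and 7.26 without and 7.79 and 7.79 with MLIF. The 5 that passed, Ltf, S100a8, Ngp, Mpo and Camp, encode granule and cytosolic proteins of neutrophils.

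Ltf, lactoferrin of the secondary granules (10589703), read 7.51 and 7.92 without and 8.71 and 8.81 with MLIF. Ltf rose by 1.05 (SE 0.16, adjusted p 0.033). S100a8, a subunit of calprotectin (10493831), read 8.16 and 8.59 against 9.40 and 9.35. S100a8 rose by 1.00 (SE 0.17, adjusted p 0.042). Its partner S100a9 had the largest change of the list, 1.38 (SE 0.30), and did not pass (adjusted p 0.0863), since the adjuvant arrays were 7.82 and 8.80 and the MLIF arrays 9.68 and 9.71. In both calprotectin genes adjuvant 1 was the lowest array, and the groups did not overlap, as for 36.0% of all genes on the higher side.

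Ngp, neutrophilic granule protein (10589535), read 9.00 and 8.79 without and 9.79 and 9.82 with MLIF, and rose by 0.91 (SE 0.13, adjusted p 0.028). Mpo, myeloperoxidase of the primary granules (10380174), read 6.94 and 6.84 against 7.66 and 7.60, and rose by 0.74 (SE 0.10, adjusted p 0.0268). Camp, the cathelicidin precursor (10597098), read 7.18 and 7.29 against 7.90 and 7.96, and rose by 0.69 (SE 0.10, adjusted p 0.0291). In these 3 the groups were separated by more than the spread within either, and lack of overlap was a condition for naming them. Of the serine proteases of the primary granules, Ctsg at 0.82 (adjusted p 0.0596) and Prtn3 at 0.57 (0.0522) came close without passing. Elane was at 0.56 (0.208). Lcn2, an iron-withholding lipocalin, was at 0.66 (adjusted p 0.0524) and the surface marker Ly6g at 0.69 (0.138). The receptors Cxcr2 (0.27) and Csf3r (0.23), the integrin Itgam (0.21) and the collagenase Mmp8 (0.41) shifted less than the 5 neutrophil genes that passed. Padi4 (0.03) and the maturation factor Cebpe (-0.03) lay near the median of all genes. Padi4 was below the level of the entries without annotation.

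**Figure D2:**
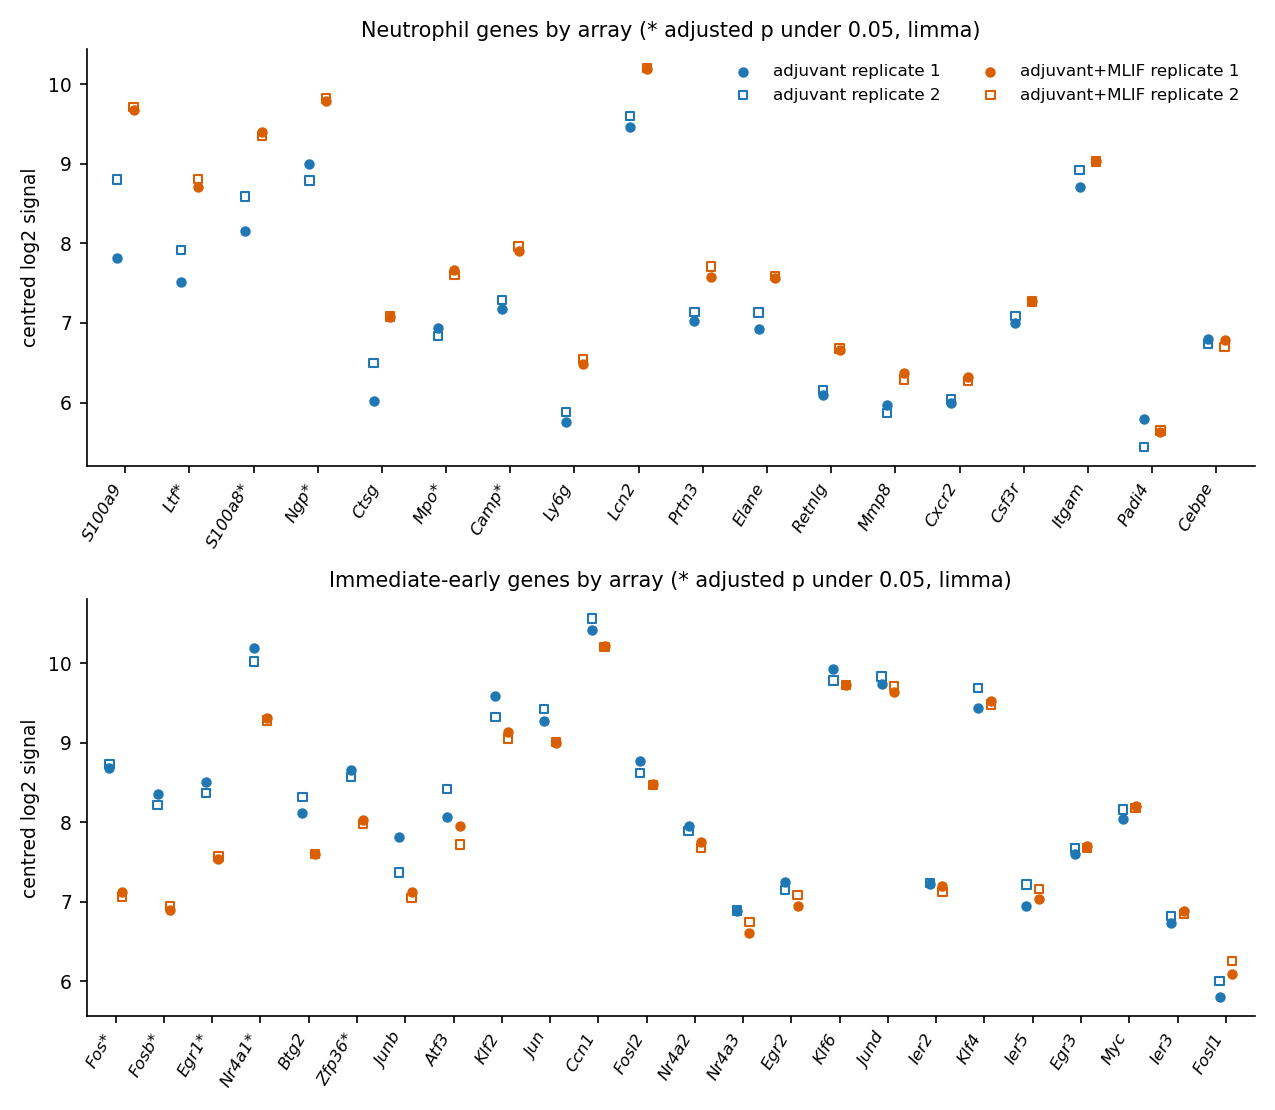
Centred log2 signal (vertical) of 18 neutrophil genes (top) and 24 immediate-early genes (bottom) on the 2 adjuvant arrays (blue) and the 2 adjuvant+MLIF arrays (orange), genes ordered by their change and an asterisk marking an adjusted p (limma) under 0.05. The orange points lie above the blue ones in 16 of 18 neutrophil genes and below them in 18 of 24 immediate-early genes.

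Markers of marrow and of other leukocytes were set beside these values. Of 10 erythroid and marrow genes measured none passed (2 higher and 0 lower at an unadjusted p under 0.05 by limma), the median was 0.08, and the mean signal was 7.35 and 7.42 without and 7.52 and 7.50 with MLIF. The heme synthesis gene Alas2 of red cell precursors read 7.38 and 7.50 against 7.86 and 7.85 (0.41, adjusted p 0.191), and the platelet gene Pf4 was at 0.48 (adjusted p 0.437). Of 23 macrophage genes none passed (2 higher and 0 lower unadjusted), 21 were positive and the median was 0.09. For both lists, 3.50% of all genes were higher and 1.81% lower at that unadjusted threshold, and 12373 of 19938 were positive. The part of marrow or of blood in the neutrophil result was not tested.

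Prg2, the major basic protein of eosinophil granules (10473399), had the largest rise of all. It read 7.22 and 7.35 without and 8.66 and 8.74 with MLIF. The groups were more than 1 log2 unit apart, and Prg2 rose by 1.42 (SE 0.12, adjusted p 0.00655). It was the only 1 of 15 mast cell and eosinophil genes to pass, where 0.0853% of all genes passed higher. The median of that list was 0.06. Epx, eosinophil peroxidase, read 6.11 and 5.78 against 6.54 and 6.62 (0.64, adjusted p 0.211). Hdc, which makes histamine, was at 0.23 and the mast cell protease gene Cpa3 at -0.19. Rnase2a, of the eosinophil-associated ribonuclease family, read 6.06 and 6.22 against 6.75 and 6.89 and rose by 0.68 (adjusted p 0.0378). Its adjuvant mean (6.14) lay below the median of the entries without annotation (6.29). It met the signal rule for named genes only through the MLIF arrays.

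Of 29 chemokines and their receptors 2 passed higher and 0 lower, where 0.0853% of all genes passed higher, and the median was 0.05. Ppbp, the platelet basic protein that yields a neutrophil chemoattractant (10523128), read 7.76 and 8.04 without and 8.92 and 8.97 with MLIF. Ppbp rose by 1.05 (SE 0.13, adjusted p 0.0227). Cxcl9, a chemokine induced by interferon gamma that draws T cells (10531407), read 7.45 and 7.55 against 8.37 and 8.32. Cxcl9 rose by 0.85 (SE 0.12, adjusted p 0.0289). Neither overlapped between the groups, which was a condition for naming them and held for 36.0% of all genes on the higher side. Cxcl10, a ligand of the same receptor, was at 0.62 (adjusted p 0.314), and Ccl8 at 0.65 (0.316) with adjuvant 1 at 6.59 and adjuvant 2 at 7.29.

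None of 19 T cell and natural killer cell genes passed (5 higher and 0 lower at an unadjusted p under 0.05 by limma, where 3.50% of all genes were higher and 1.81% lower), and their median was 0.10. The 19 B cell and plasma cell genes had a median of -0.03, with 8 positive and 11 negative, and none passed (3 higher and 0 lower unadjusted by limma). That list stayed below the median of all genes when each of the 4 arrays was left out (-0.09 to -0.05). Among the T cell and natural killer cell genes the kinase gene Zap70 was at 0.53 (adjusted p 0.0655), the natural killer receptor gene Ncr1 at 0.46 (0.126), Nkg7 at 0.51 (0.293) and Cd4 at 0.46 (0.259). Levels were low: 9 of those 19 genes lay below the entries without annotation. Il2rb, the beta chain of the receptors for interleukins 2 and 15, was not in that list and read 6.13 and 5.85 against 6.68 and 6.67. Il2rb rose by 0.68 (adjusted p 0.0464). Its adjuvant mean (5.99) also lay below the median of the entries without annotation (6.29). It met the signal rule for named genes only through the MLIF arrays.

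Of 20 interferon-induced genes none passed (5 higher and 1 lower at an unadjusted p under 0.05 by limma, against 3.50% and 1.81% of all genes), 17 were positive, and the median was 0.12. Irf7, a regulator of the interferon response, read 8.18 and 8.66 without and 9.14 and 9.05 with MLIF (0.67, adjusted p 0.17). The guanosine triphosphatase genes Iigp1 (0.53, adjusted p 0.344) and Gbp3 (0.35, 0.383) were positive and Mx1 was at -0.49 (0.278). Gbp7, of the same family as Gbp3 and looked up after its value was seen, read 7.85 and 7.91 against 8.40 and 8.47 and rose by 0.56 (adjusted p 0.0459). Among 24 pro-inflammatory cytokines and receptors none passed (3 higher and 0 lower unadjusted, against the same shares) and the median was 0.10. Tnf was at 0.50 (adjusted p 0.446), its receptor gene Tnfrsf1a at 0.33 (0.426), Il18 at 0.32 (0.538) and Il33 at 0.24 (0.671).

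The remaining genes chosen by size were mixed. Olfm4, a secreted protein of a neutrophil subset and of gut crypts, read 6.21 and 6.29 without and 6.97 and 6.98 with MLIF. It rose by 0.72 (adjusted p 0.0282). Its adjuvant mean (6.25) did not exceed the median of the entries without annotation on those arrays (6.29), so it met the signal rule only through the MLIF arrays. Slurp1, a secreted keratinocyte protein, read 8.18 and 8.27 against 8.93 and 8.91 and rose by 0.70 (adjusted p 0.0378). The 22 epidermal genes had a median of 0.08 and none passed (1 higher and 1 lower unadjusted by limma, against 3.50% and 1.81% of all genes). On the lower side 8 of 12 entries passed, and the list was filled by p with Btg2, Fasn, Stab2 and a copy of Srsy. Stab2, a scavenger receptor for hyaluronan on sinusoidal endothelium, read 9.54 and 9.60 against 9.07 and 9.05 (-0.51, adjusted p 0.0736). Srsy, a multi-copy gene of the Y chromosome, took 3 of the 12 places. Besides Gbp7 and Mir27a, the passing probe sets outside the rule were Vmn1r35 (1.29), an immunoglobulin kappa variable segment (0.96), Snora73a (0.65), Ccdc12 (0.62) and Dbpht2 (0.59) on the higher side. On the lower side they were 4 for Gm7982 (-1.11 to -0.78), Spef2 (-0.97), Olfr1444 (-0.89), Cyp3a25 (-0.85) and Gm21286 (-0.85). In 6 of the 15, Vmn1r35, Ccdc12, Dbpht2, Spef2, Olfr1444 and Cyp3a25, the signal did not exceed the median of the entries without annotation.

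Fasn, fatty acid synthase, read 10.25 and 10.35 without and 9.72 and 9.77 with MLIF (-0.55, adjusted p 0.0625). It stood lowest of 22 adipocyte genes, of which 17 were negative and 12 had both MLIF arrays below both adjuvant arrays, against 18.3% of all genes. None passed (0 higher and 3 lower at an unadjusted p under 0.05 by limma, against 3.50% and 1.81% of all genes), and the median was -0.11. Pck1, which feeds glycerol into fat, was at -0.45 (adjusted p 0.132), the fatty acid synthesis gene Acaca at -0.30 (0.462) and the lipid droplet coat gene Plin1 at -0.21 (0.687). Adipoq, the defining fat marker, read 9.26 and 9.74 against 9.27 and 9.32, so that adjuvant 1 lay with the MLIF arrays. The list of cholesterol and sebaceous lipid genes had a median of 0.17 over 17 genes, 12 positive and 5 negative (-0.33 to 0.58). Its members with the smallest p encode enzymes of cholesterol synthesis, with Idi1 at 0.58 (adjusted p 0.208), Sqle at 0.36 (0.403), Mvd at 0.27 (0.478) and Lss at 0.27 (0.569). None of the list passed (4 higher and 0 lower unadjusted by limma, against the same shares of all genes).

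The small shifts of whole lists were compared with the median of all genes (0.04). Of 43 lists 32 lay above it and 11 below, and 26 kept their side when each of the 4 arrays was left out in turn (19 above and 7 below). After the neutrophil genes the largest upward shifts were those of osteoclast genes (0.14 above all genes, 0.07 to 0.21 without 1 array), cholesterol and sebaceous lipid genes (0.13, 0.11 to 0.14), complement and acute phase genes (0.12, 0.06 to 0.18), cell cycle genes (0.12, 0.09 to 0.11) and collagen genes (0.10, 0.07 to 0.13). No gene of these 5 lists passed by limma; at an unadjusted p under 0.05 each had 1 to 5 genes higher and 0 or 1 lower, where 3.50% of all genes were higher and 1.81% lower. The immediate-early genes lay at -0.25 (-0.30 to -0.23) and the adipocyte genes at -0.15 (-0.19 to -0.07). Lists of ribosomal proteins (0.06, -0.04 to 0.21), the respiratory chain (0.06, -0.02 to 0.14), glycolysis (0.06, -0.04 to 0.14) and macrophages (0.05, -0.02 to 0.13) changed side with the array left out.

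Within these lists Acp5, the tartrate-resistant phosphatase of osteoclasts, read 9.14 and 9.45 without and 9.63 and 9.65 with MLIF (0.34, adjusted p 0.576). Complement genes C4b (0.36, adjusted p 0.274) and Cfi (0.45, 0.27) were positive and the acute phase gene Orm1 was at -0.47 (0.349). The replication genes Top2a (0.33, adjusted p 0.306), Mcm6 (0.48, 0.474) and Pcna (0.28, 0.578) were positive. Tnn, tenascin N of bone and tendon matrix, read 7.07 and 7.24 against 7.80 and 7.82 (0.65, adjusted p 0.154), Col1a1, the main bone and skin collagen, was at 0.29 (0.701), and Ogn, a small leucine-rich proteoglycan, was at -0.41 (0.291). In each of these the MLIF arrays lay on 1 side of both adjuvant arrays. That held for 36.0% of all genes on the higher side and 18.3% on the lower, so it does not set these genes apart.

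**Figure D3:**
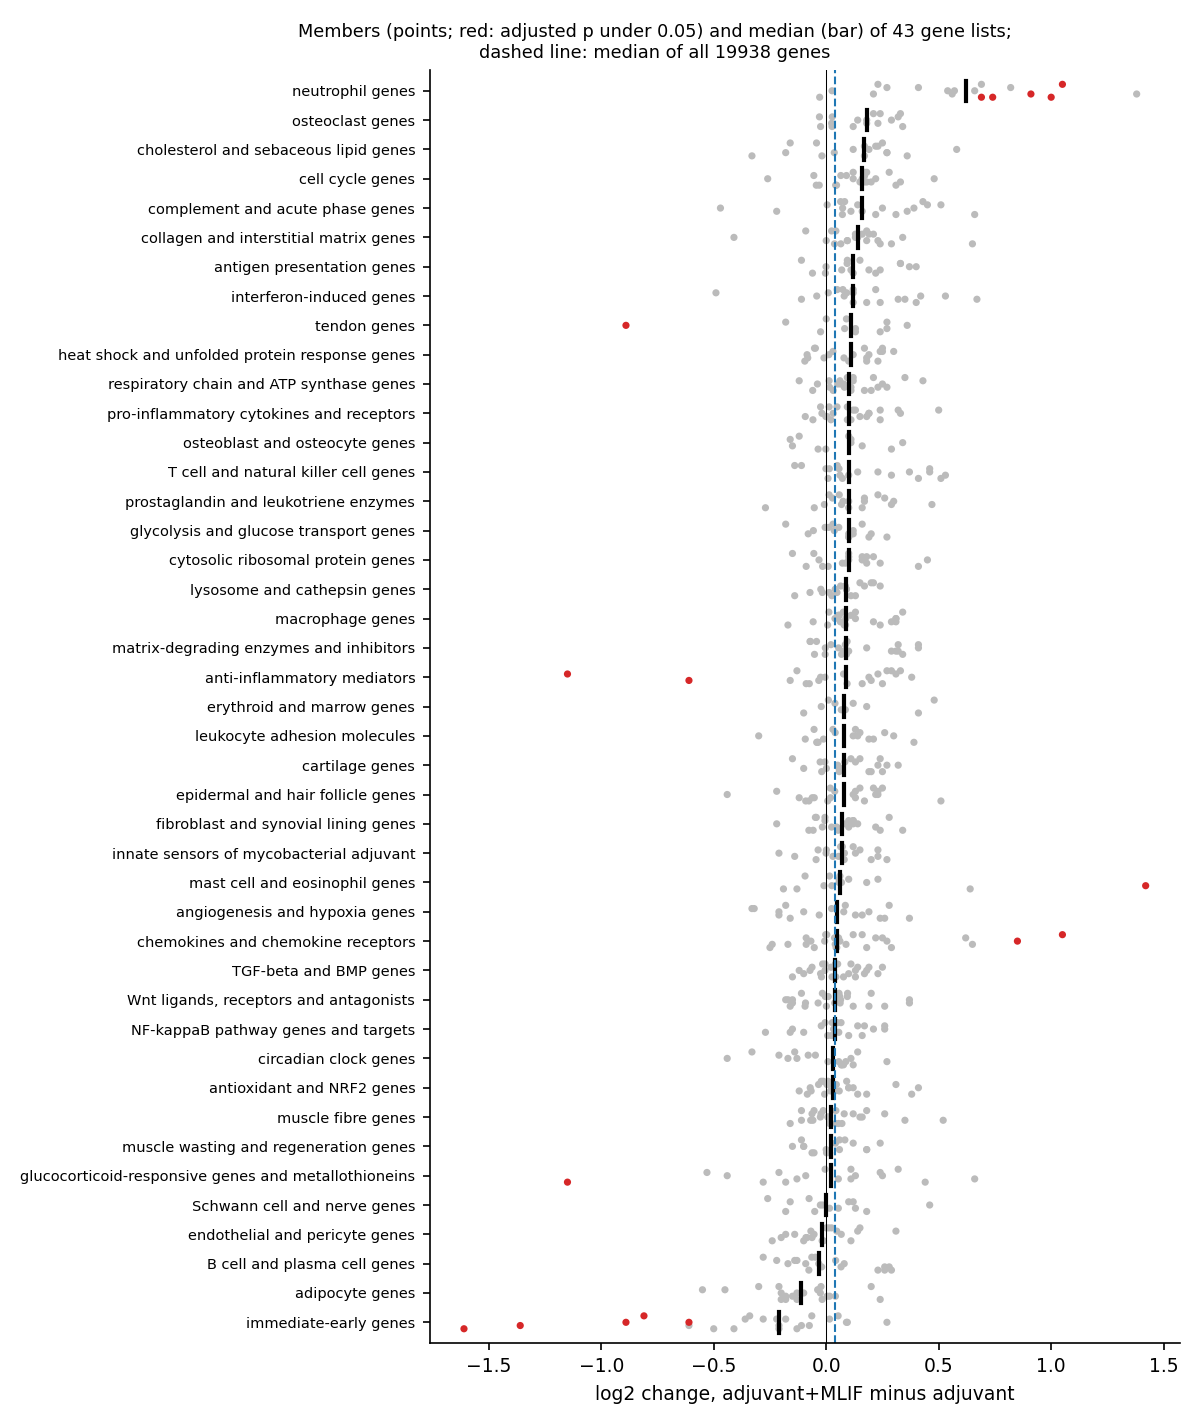
Log2 change with MLIF in adjuvant-only mice (horizontal) of the members of 43 gene lists (points, red where the adjusted p by limma is under 0.05), with each list's median as a bar and the median of all 19938 genes (0.04) as a dashed line. The neutrophil genes (0.62) lie at the top and the adipocyte (-0.11) and immediate-early genes (-0.21) at the bottom.

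Several families of multi-copy sequences were lower with MLIF, picked here after their values were seen. For scale, 0.884% of all probe sets and 6.05% of those with several symbols passed lower. All 24 probe sets for Snord116, the small nucleolar RNA repeated in an imprinted cluster, passed lower, with 7 distinct sets of values. Their median signal was 8.14 and 8.25 without and 7.24 and 7.26 with MLIF, and 5.55 and 5.51 in CIA and 7.90 and 7.75 in CIA+MLIF. Of 45 probe sets for copies of the Y-linked Ssty and Gm20831 genes 29 passed lower, with a median of 8.85 and 8.97 against 8.24 and 8.22. The Gm3696 relatives (11 of 19, median change -0.83), Pramel copies (16 of 67, -0.51) and Obox copies (3 of 9, -0.68) also had passing members, all lower. Probes for such near-identical copies share their targets, so these probe sets are not separate measurements. The 5534 probe sets with no symbol had a median change of -0.01, with 141 lower and 1 higher.

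Among small RNA genes, the mature forms of the Mir23a, Mir27a and Mir24-2 cluster are given because Mir27a was the only microRNA gene of 305 probe sets to pass (0.328%). Of all probe sets 0.950% passed, and of those with 1 symbol 0.161%, so 1 pass among 305 does not set microRNA genes apart. The mature forms were looked up after the values were seen. The sequences are from RefSeq (GRCm38.p6), with the seed, bases 2 to 8, in capitals, and the 3 seeds differ.
mmu-miR-23a-3p (chr8:84208563-84208583, plus strand): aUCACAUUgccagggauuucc
mmu-miR-27a-3p (chr8:84208727-84208747, plus strand): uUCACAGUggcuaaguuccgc
mmu-miR-24-3p (chr8:84208875-84208896, plus strand): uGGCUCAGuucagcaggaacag

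The probe sets read the precursor or primary transcript in total RNA, not the mature form. Mir27a read 9.73 and 9.86 without and 9.17 and 9.19 with MLIF, and fell by 0.61 (SE 0.10, adjusted p 0.0396). Mir23a read 9.39 and 9.67 against 8.95 and 8.94 (-0.59, SE 0.13, adjusted p 0.104). Mir24-2 read 7.90 and 7.91 against 7.72 and 7.72 (-0.19, SE 0.15, adjusted p 0.84). In all 3 both MLIF arrays were the lower ones, by unequal amounts, which held for 18.3% of all genes.

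Whether collagen immunisation altered the response to MLIF was tested by the interaction, the change in CIA mice minus the change in adjuvant mice, which share no array. It passed for 4725 of 28944 probe sets (16.3%). Of these 2373 were higher and 2352 lower, and with the deposited values uncentred 1626 were higher and 469 lower. Over 1 probe set a gene 1073 of 19938 passed higher (5.38%) and 1792 lower (8.99%). Without CIA 1 it passed for 4715 probe sets, and without CIA 2 for 7950. In CIA mice themselves, 6984 probe sets passed in either direction (24.1%), and the epidermal keratins named above differed strongly in level between CIA and adjuvant mice in either arm. Their part in the interaction was not tested. Across 19938 genes, which are not independent replicates, the changes in the 2 settings had r = -0.20, and 43.2% had the same sign.

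Where 8.99% of all genes passed the interaction in the lower direction, all 18 neutrophil genes did. Their median change with MLIF was 0.62 in adjuvant mice and -1.77 in CIA mice, where all 18 were negative. S100a8 read 11.02 and 10.94 in CIA and 8.39 and 8.81 in CIA+MLIF, so its 4 group means ran from 8.37 in adjuvant mice over 8.60 in CIA+MLIF and 9.37 in adjuvant+MLIF to 10.98 in CIA. The arrays of adjuvant and CIA+MLIF mice overlapped. Prg2 had the largest negative interaction of the named genes, with 9.92 and 10.02 in CIA and 7.67 and 7.47 in CIA+MLIF (interaction -3.82, SE 0.16, adjusted p 8.67e-06). Ltf (interaction -3.03), Ngp (-2.97), Ppbp (-2.82) and Mpo (-2.51) went the same way. Cthrc1, a secreted collagen triple helix protein, Mmp9, a gelatinase, and Tnn were named for their interactions (-3.43, -3.19 and -3.26), which came mostly from CIA mice: their changes in adjuvant mice were 0.22, 0.32 and 0.65.

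Of 24 immediate-early genes 8 passed the interaction higher and 2 lower, where 5.38% of all genes passed higher and 8.99% lower. Fos read 7.92 and 7.90 in CIA and 8.20 and 8.23 in CIA+MLIF, a change of 0.31 (interaction 1.92, SE 0.14, adjusted p 4.76e-05). Fosb read 8.43 and 8.31 in CIA and 8.39 and 8.28 in CIA+MLIF, so that adjuvant+MLIF was the only group below 8 (interaction 1.33, adjusted p 0.000623). Egr1 (interaction 1.56) and Nr4a1 (1.71) fell with MLIF in adjuvant mice and rose in CIA mice. Dusp1 passed the interaction (1.66), but its own change in CIA mice did not pass (0.51, adjusted p 0.0748), with CIA 1 at 11.07 and CIA 2 at 10.42. Zfp36 did not pass (0.25, adjusted p 0.284). Against the same shares of all genes, 11 of the 22 adipocyte genes passed higher, among them Fasn (1.17), Pck1 (1.64) and Plin1 (1.51), and 2 lower. Cxcl9 (-0.46, adjusted p 0.115), Il2rb (-0.50, 0.0882) and Rnase2a (0.16, 0.534) did not pass, and Rnase2a was higher with MLIF in CIA too (0.84, adjusted p 0.000891). The 6 largest positive interactions by the rule for named genes were all copies of Srsy (2.81 to 2.90, with 4 distinct sets of values), which read 5.77 to 6.46 in CIA and 8.20 to 8.48 in CIA+MLIF.

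**Figure D4:**
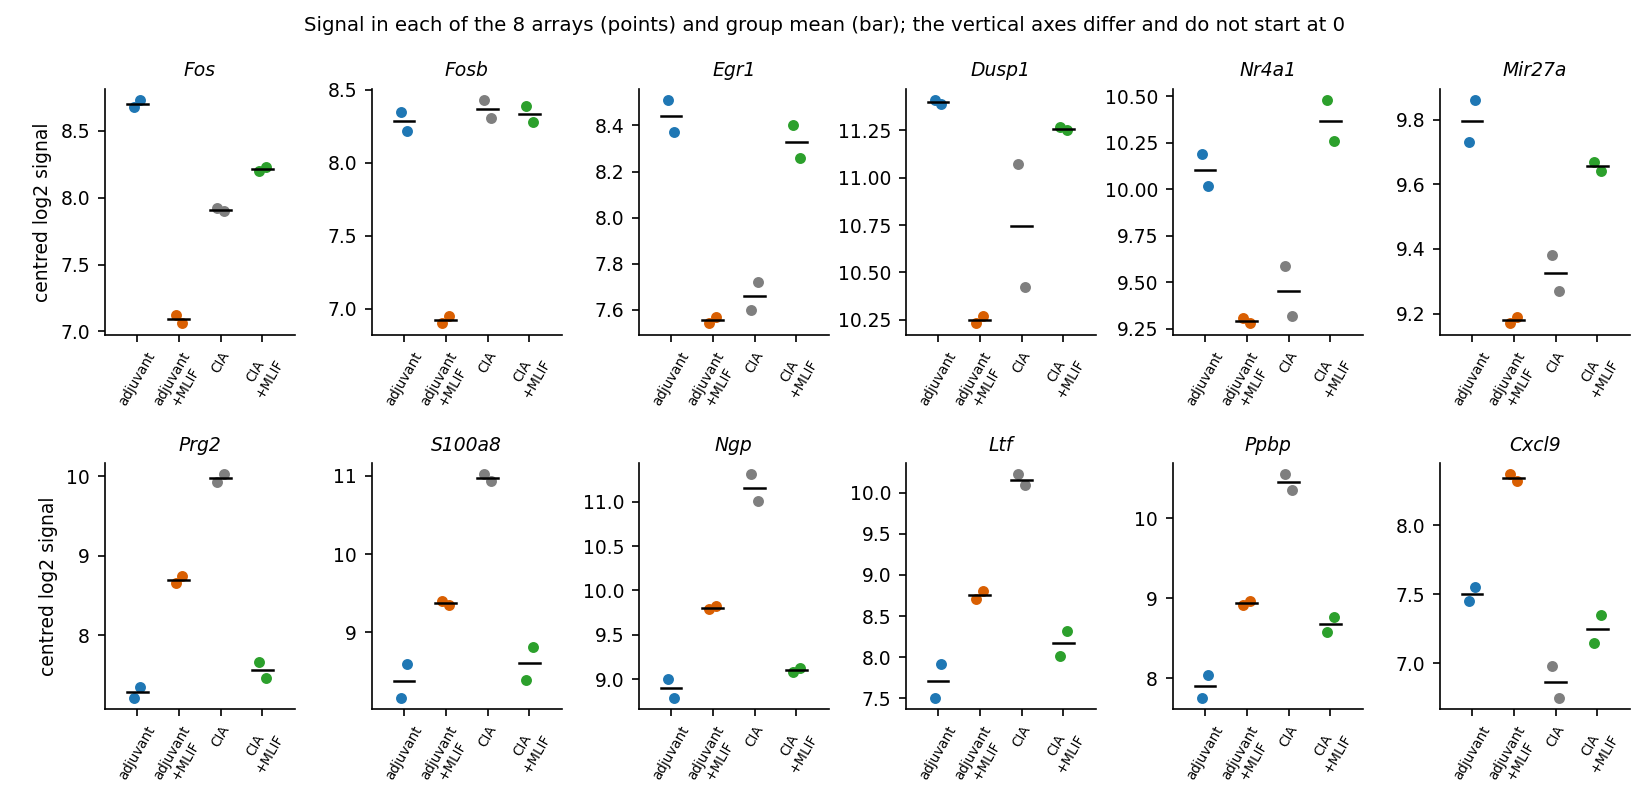
Centred log2 signal (vertical, axes differ) of 12 genes on each of the 8 arrays by group, with points for arrays and bars for group means. Fosb is low in adjuvant+MLIF alone, and S100a8, Ngp, Ltf, Ppbp and Prg2 are highest in CIA, with adjuvant+MLIF between CIA and adjuvant.

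**Figure D5:**
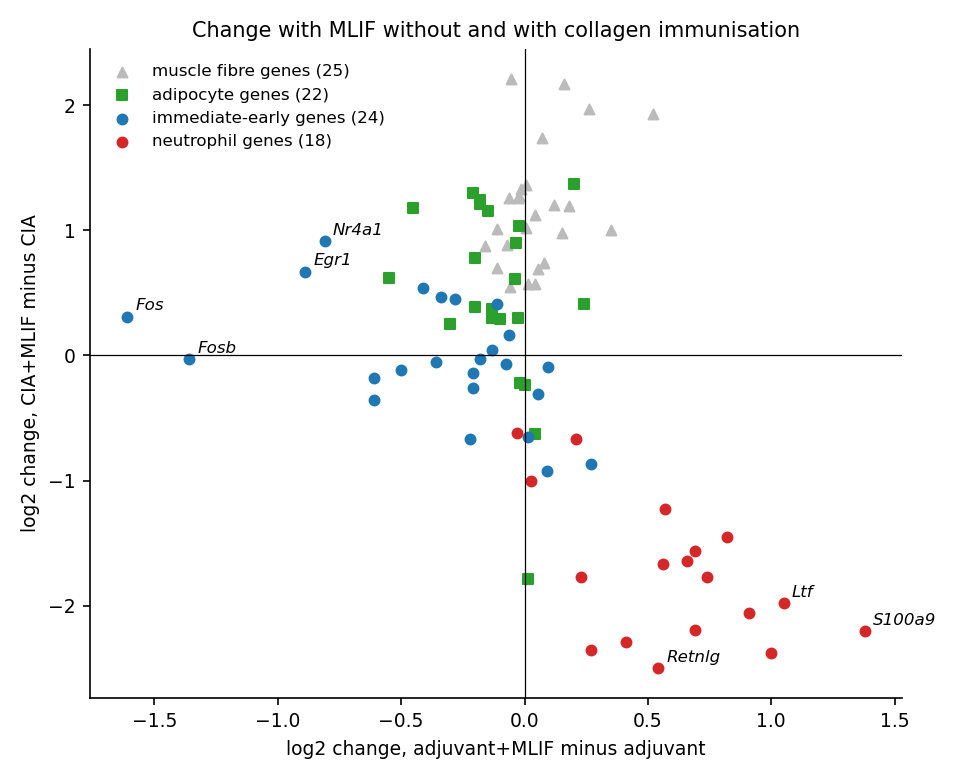
Log2 change with MLIF in CIA mice (vertical) against that in adjuvant mice (horizontal) for the members of 4 gene lists, 1 point a gene. Neutrophil genes lie at a median of 0.62 in adjuvant and -1.77 in CIA mice, immediate-early genes at -0.21 and -0.06, adipocyte genes at -0.11 and 0.51 and muscle fibre genes at 0.02 and 1.12.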

How the data were processed

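Total RNA (300 ng a sample, biotin-labelled) was measured on 8 single-colour Affymetrix Mouse Gene 1.0 ST arrays, 2 in each of 4 groups, grouped by their titles. The values deposited by the authors are log2 signals per probe set. How background was corrected and signals were summarised and normalized is not given in sources used for this work, so precision rests on the number of arrays. Of 35557 entries, the block of 6613 with the lowest identifiers, none of them annotated, was left out. It gave the level called that of the entries without annotation. Each array was centred on its median over the other 28944, which include probe sets with no symbol, and moved back to the mean of the 8 medians. Symbols came from the platform annotation: 21789 probe sets carried 1 symbol (21698 matched to RefSeq), 1621 several and 5534 none. A gene was represented by its probe set with the highest mean signal.

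Changes were fitted with limma 3.58.1 (lmFit and eBayes, 4 group means, 8 arrays, 4 residual degrees of freedom) in R 4.3.3, with Benjamini-Hochberg adjustment over 28944 probe sets. Code was tested on simulated data. Tables and figures used Python 3.11.15, pandas 2.3.3, numpy 2.4.6 and Matplotlib 3.10.9. A probe set could be named if it had 1 symbol and groups that did not overlap. In the group with the higher mean, its signal had to exceed that of the entries without annotation. Clone names, receptor and immunoglobulin segments and small RNAs were passed over. Named genes were the 12 largest passing rises and 12 largest passing falls among these, filled by smallest p. To these were added up to 4 members by smallest p of each list described, members that passed, and the 6 largest interactions in each direction. Members and the 43 lists were chosen with earlier results of these data known. Alternatives covered scaling, threshold, low signals, arrays fitted, spread model, replicate block and each array left out.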

Additional observations from a re-analysis of the deposited data

Results flagged for a closer look

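Each value here is an interaction, the log2 change with MLIF in CIA mice minus that in adjuvant mice, picked out because it passed by limma (adjusted p 8.67e-06 to 0.0479). The 83 values belong to genes described above or to other members of the neutrophil and immediate-early lists. Probe sets of a gene with identical values count once. In 80 of the 83 the change had opposite signs in adjuvant and CIA mice. Choosing by the interaction favours opposite signs, so the count is no test of a reversal. Some of the signs belong to changes near 0, such as Padi4 (0.03) and Myc (0.09) in adjuvant mice and Dbpht2 (-0.03) in CIA mice. Epidermal keratins differed in level between the adjuvant and CIA arms, and their part in these values was not tested.

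Among neutrophil genes the interactions were S100a9 (-3.58), S100a8 (-3.39), Retnlg (-3.04), Ltf (-3.03), Ngp (-2.97), Ly6g (-2.88), Mmp8 (-2.70), Cxcr2 (-2.63), Mpo (-2.51), Lcn2 (-2.31), Ctsg (-2.27), Camp (-2.25), Elane (-2.23), Csf3r (-2.00), Prtn3 (-1.80), Padi4 (-1.02), Itgam (-0.89) and Cebpe (-0.59). Among eosinophil, mast cell, platelet and red cell genes they were Prg2 (-3.82), Epx (-2.26), Hdc (-1.59), Ppbp (-2.82) and Alas2 (-0.93). Matrix and bone genes gave Cthrc1 (-3.43), Tnn (-3.26), Mmp9 (-3.19), Acp5 (-2.70) and Col1a1 (-1.36). Replication and cholesterol genes gave Top2a (-1.74), Mcm6 (-1.30), Pcna (-1.07), Idi1 (-0.77) and Sqle (-0.71). Cytokine, chemokine, complement and interferon genes gave Il4ra (-1.52), Ccl8 (-1.48), Il1r2 (-1.38), Tnfrsf1a (-0.89), Il18 (-0.74), Nkg7 (-1.18), Cfi (-0.93), Gbp3 (-0.67), Gbp7 (-0.51) and Mx1 (0.92). Epithelial and other secreted genes gave Krt14 (-1.38), Slurp1 (-1.10), Krt1 (-0.94) and Olfm4 (-1.55).

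Immediate-early and related genes had interactions of both signs, with Fos (1.92), Nr4a1 (1.71), Dusp1 (1.66), Egr1 (1.56), Fosb (1.33), Per1 (1.00), Atf3 (0.95), Jun (0.81), Ccn1 (0.74), Jund (0.52), Myc (-1.01) and Fosl1 (-1.14). Fat and endothelial genes gave Pck1 (1.64), Plin1 (1.51), Fasn (1.17), Acaca (0.55) and Stab2 (0.61). The microRNA genes gave Mir23a (1.09) and Mir27a (0.94). Copies of the multi-copy gene Srsy (2.70, 2.71, 2.81, 2.84, 2.88, 2.90) were also positive. The other passing probe sets gave the immunoglobulin kappa segment (-2.59), Vmn1r35 (-1.39), Snora73a (-1.14), Dbpht2 (-0.62), Olfr1444 (1.24), Cyp3a25 (1.50), Spef2 (2.03), Gm21286 (2.38) and Gm7982 (2.38, 2.71, 2.99).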

How the results depend on the processing

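Which changes passed depended on the setting. The direction of the 24 named entries is no sign of stability, since groups that do not overlap keep it when 1 array is left out, and most other alternatives alter the spread and not the change. Against 275 probe sets in the adjuvant comparison, 467 passed at an adjusted p under 0.1, 674 in a fit of only the 4 adjuvant arrays, 529 without both CIA arrays, 417 with a trended robust spread, 1357 with array weights, 3 averaged per gene, and 0 uncentred or with the adjuvant+MLIF arrays averaged as 1. Alternatives chosen after seeing the data gave 61 (1 of each set of identical values), 109 (annotated only), 529 (uncentred without both CIA arrays) and 678 (quantile-normalized, 4 adjuvant arrays). Leaving out 1 array gave 0 to 529. The interaction count of 4725 became 2095 uncentred, 3041 averaged per gene, 2053 with the adjuvant+MLIF arrays averaged (chosen after seeing the data) and 2075 to 7950 without 1 array. Of the 24 named entries 20 passed, 0 uncentred or with those arrays averaged, and 0 to 21 without 1 array. A group left with 1 array adds nothing to the spread and is assumed to vary like the others. Over all single-gene values 242 kept their side of the threshold, 160 lost and 30 gained it. Quantile normalization gave 365 calls, 218 of them shared.

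The labels do not say that replicate numbers pair the arrays. Deviations of same-numbered arrays had r = 0.0 between adjuvant and adjuvant+MLIF, 0.39 between adjuvant and CIA+MLIF, and -0.11 to 0.0 for the other 4 pairs of groups. With the replicate number as a block, 357 probe sets passed, 261 of them shared, 4414 passed the interaction and 19 named entries passed. The block is balanced here and cannot move a change or a list median. Of 43 list medians, 40 kept their side of the all-gene median after quantile normalization and 33 to 41 without 1 array, and 26 kept it without each array in turn. With 2 arrays a group, changes within about 0.3 of 0 lay inside the median unadjusted interval. Larger ones, such as that of Fasn (-0.55), also did not pass.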
